A study of Arabidopsis thaliana with 8 samples.

Results

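Stomatal lineage and guard cell regulators are proteins that decide which cells of the young leaf surface become stomata, or that act in their guard cells. Stomata are the adjustable pores through which a leaf takes up carbon dioxide and loses water. The set held 10 genes taken by locus, with no measured value in the rule: SPCH (AT5G53210), MUTE (AT3G06120), FAMA (AT3G24140), SCRM (AT3G26744), TMM (AT1G80080), EPF1 (AT2G20875), EPF2 (AT1G34245), STOMAGEN (AT4G12970), SDD1 (AT1G04110) and MYB60 (AT1G08810). Each had exactly 1 row in the deposited table, so 10 of 10 were found among 30361 features. The set and the gene lists used below were, however, chosen with earlier results of these data known. Leaf RNA of 6-week-old Arabidopsis thaliana came from 2 genotypes with 4 biologically independent samples each: the wild type (WT), and transgenic line 57 carrying DGTT2, an enzyme from the alga Chlamydomonas that makes triacylglycerol. Both grew on soil at 22 C, with 16 h light and 8 h dark. The study asked how leaves respond when an algal enzyme draws carbon from surface lipids into triacylglycerol. With a single transgenic line, what the transgene does and what else sets the line apart cannot be told apart, and the labels do not name the promoter.

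A stoma arises when a surface cell enters the lineage, divides unequally and ends as a pair of guard cells. In Arabidopsis the basic helix-loop-helix proteins SPCH, MUTE and FAMA act one after the other, each with SCRM or its relative SCRM2 as partner, to start the lineage, commit the precursor and complete the guard cells. Secreted peptides read by TMM and the ERECTA receptor kinases space the stomata, with EPF1 and EPF2 restraining the lineage and STOMAGEN favouring it.

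Each RNA sample was hybridised to 1 single-colour array, and every value below is a log2 expression level, on which a difference of 1 is a 2-fold difference. Array medians lay between 10.19 and 10.28, and correlations between arrays across features between 0.988 and 0.995. The means of the 4 mesophyll markers lay between 15.80 and 15.94, near the upper end of the scale (15.99). The 5 epidermis markers also had high signal, while the 4 root markers lay at 5.02 to 6.83, against 5.93 for the median pseudogene, which serves here as a rough guide to background. Every one of the 10 regulators had a mean above those of at least 88.2% of 3815 pseudogene features. Levels are compared below only within a gene.

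None of the 10 regulators was called changed between DGTT2 and WT leaves. At an adjusted p under 0.05 (limma, Benjamini-Hochberg over all features) 0 of the 10 passed, where 0.0725% of all features did. At an unadjusted p under 0.05 1 of the 10 passed, MYB60, against 10.5% of all features, so that share is near the background. The 95% interval of every one of the 10 differences lay within 2-fold. The median difference (DGTT2 minus WT) was 0.09, against -0.001 over all features, and 7 of the 10 had the higher mean in DGTT2. The genotypes did not overlap in 2 of the 10, MYB60 (higher in DGTT2) and FAMA (lower), against 5.64% of all features. In whole-leaf RNA, fewer cells of a type and less RNA per cell cannot be told apart.

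**Figure D1:**
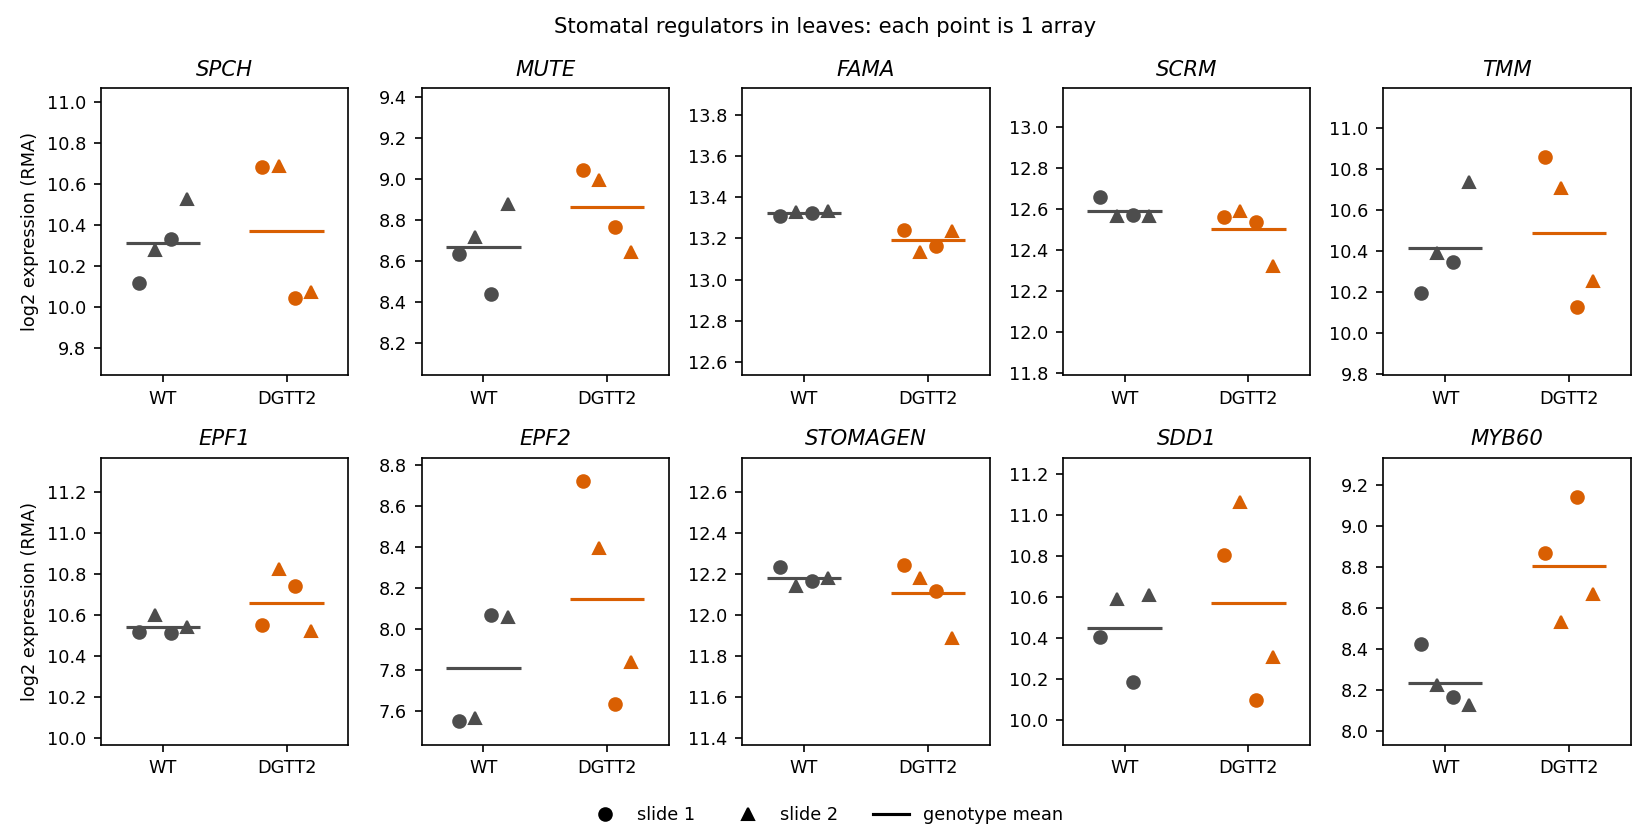
Log2 expression (y axis) of the 10 regulators in WT and DGTT2 leaves. Each point is 1 array, circles are slide 1 and triangles slide 2, lines are means of 4 arrays, and every panel spans the same range; MYB60 and FAMA are the genes whose genotypes do not overlap, and SPCH, TMM, EPF2 and SDD1 spread most within DGTT2.

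MYB60, a transcription factor of guard cells known in Arabidopsis for favouring stomatal opening, had the smallest p of the set. It was at 8.87, 8.53, 9.14 and 8.67 in DGTT2 replicates 1 to 4 and at 8.42, 8.22, 8.17 and 8.12 in WT replicates 1 to 4. All DGTT2 arrays lay above all WT arrays, with a gap of 0.11 between the nearest values. The means were 8.80 ± 0.26 in DGTT2 and 8.23 ± 0.13 in WT (SD, n = 4 each). The ratio was 1.48 (95% interval 1.19 to 1.85), with a log2 difference of 0.57 (SE 0.14). It missed the threshold over all features (limma adjusted p = 0.196), and ranked 473 by p among the 30361 features. Within slide 1 the difference was 0.71 and within slide 2 it was 0.43, and a fit that held slide fixed gave a limma adjusted p of 0.103. Over 17 other settings with a test the limma adjusted p ran from 0.103 to 0.422.

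No gene on a wider list of guard cell function passed either. Of 27 genes of guard cell function, 0 passed at an adjusted p under 0.05 and 0 at an unadjusted p under 0.05 (limma), against 0.0725% and 10.5% of all features. Their median difference was -0.002, and the outermost bounds of all 27 intervals were -0.54 and 0.41, so none reached beyond 1.45-fold. HT1, a kinase of the carbon dioxide response of guard cells, had the smallest p, at -0.26 (SE 0.12, limma adjusted p = 0.503). GORK, the outward potassium channel of guard cells, was at -0.16 (SE 0.13), and ALMT12, an anion channel of stomatal closure, at -0.15 (SE 0.11). KAT1, an inward potassium channel, ran from 12.46 to 13.03 in DGTT2 and from 12.68 to 13.13 in WT, and SLAC1, the slow anion channel, from 12.41 to 12.54 and from 12.20 to 12.66. Both were chosen after their values were seen, as familiar guard cell genes, and in both the genotypes overlapped.

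Of the MYB relatives of MYB60, one was higher and one lower in DGTT2 without overlap, and neither passed. MYB31 was at 9.03, 8.91, 9.03 and 8.80 in DGTT2 and at 8.37, 8.51, 7.98 and 8.37 in WT, with every DGTT2 array above every WT array. Its log2 difference was 0.63 (SE 0.13), and it missed the threshold (limma adjusted p = 0.123). MYB94, a regulator of cuticular wax, was lower in DGTT2, at -0.36 (SE 0.11, limma adjusted p = 0.298), with no overlap. MYB30 was at 0.15 (SE 0.11) and MYB96 at -0.21 (SE 0.18). Of these 4 genes 0 passed at an adjusted p under 0.05, and 1 was higher and 1 lower at an unadjusted p under 0.05 (limma), against 0.0725% and 10.5% of all features. The same 2 were those without overlap, against 5.64% of all features.

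Markers of other cells, those of root and flower included, are set beside these values, since whole leaves were used. All 5 trichome markers had a higher mean in DGTT2, but the list means overlapped, at 8.29 to 8.53 in DGTT2 and 8.03 to 8.32 in WT. Among them GL3, a trichome regulator near background in WT, was at 0.69 (SE 0.21, limma adjusted p = 0.277), and its genotypes did not overlap. Of the 5 trichome markers 1, GL3, had no overlap, against 5.64% of all features. The defining trichome gene GL1 was at 4.70 on average, below the median pseudogene. The 4 root markers had list means of 5.94 to 6.18 in DGTT2 and 5.62 to 5.89 in WT, which did not overlap, and all 4 had the higher mean in DGTT2. On average 2 of the 4 lay below the median pseudogene. CASP1, a root endodermis gene, was at 0.83 (SE 0.21, limma adjusted p = 0.199), with every DGTT2 array above every WT array. In the rest of the root list the genotypes overlapped, at differences of 0.08, 0.11 and 0.27. Thus 1 of the 4 root markers had no overlap, against 5.64% of all features. The 3 flower markers, all with the higher mean in DGTT2, had list means of 6.14 to 6.53 in DGTT2 and 5.94 to 6.25 in WT, with AP3, a petal and stamen regulator, at 0.38 (SE 0.18). AP3 averaged 5.72 over all arrays, below the median pseudogene. Epidermis markers were at 14.75 to 15.00 and 14.74 to 14.90, with ATML1, an epidermal identity gene, at -0.18 (SE 0.10). Of these 5 markers 4 had the lower mean in DGTT2 and 1 the higher, with differences from -0.18 to 0.36. Mesophyll means were at 15.78 to 15.92 and 15.88 to 15.91, with RCA, the Rubisco activase, at -0.08 (SE 0.10). Here 3 were lower and 1 higher, from -0.08 to 0.04. Vascular means were at 13.67 to 13.83 and 13.76 to 13.88, with SWEET11, a sucrose exporter, at -0.14 (SE 0.12). In that list 4 were lower and 1 higher, from -0.14 to 0.11. The part of such cells in the MYB60 values was not tested.

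FAMA, which completes guard cell formation and in Arabidopsis also marks the myrosin cells along veins, was the most even of the 4 helix-loop-helix genes. It was at 13.24, 13.13, 13.16 and 13.24 in DGTT2 and at 13.31, 13.33, 13.32 and 13.33 in WT. All 4 DGTT2 arrays lay below all WT arrays, by 0.07 at the nearest. The difference was -0.13 (SE 0.08, 95% interval -0.31 to 0.05, limma adjusted p = 0.639), with -0.12 on slide 1 and -0.15 on slide 2. TGG1 and TGG2, the myrosinases of myrosin and guard cells, were at 0.08 (SE 0.11) and 0.00 (SE 0.08) and lay near the top of the scale, where differences may be compressed; both were chosen after their values were seen.

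SCRM, also known as ICE1 for its role in the cold response, was at 12.56, 12.59, 12.54 and 12.32 in DGTT2 and at 12.66, 12.57, 12.57 and 12.57 in WT. The genotypes overlapped, and DGTT2 replicate 4 was the lowest array. The difference was -0.09 (SE 0.09, limma adjusted p = 0.83), and -0.03 without that array. Its relative SCRM2 was at -0.15 (SE 0.17).

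SPCH, which starts the lineage, varied more among DGTT2 plants than between the genotypes. It was at 10.68, 10.69, 10.05 and 10.08 in DGTT2 replicates 1 to 4 and at 10.12, 10.28, 10.33 and 10.53 in WT. The 2 highest and the 2 lowest arrays of all 8 were DGTT2 arrays. The difference was 0.06 (SE 0.18, 95% interval -0.34 to 0.46, limma adjusted p = 0.951). MUTE, which commits the precursor to form guard cells, was at 9.04, 9.00, 8.76 and 8.64 in DGTT2 and at 8.63, 8.71, 8.44 and 8.88 in WT. Its ranges overlapped, with a difference of 0.20 (SE 0.13, limma adjusted p = 0.676). Within slide 1 the MUTE difference was 0.37 and within slide 2 it was 0.02.

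TMM, the receptor-like protein that reads the spacing peptides, overlapped between the genotypes. It was at 10.86, 10.71, 10.13 and 10.25 in DGTT2 and at 10.20, 10.39, 10.35 and 10.74 in WT. DGTT2 replicate 1 was the highest array and DGTT2 replicate 3 the lowest. The difference was 0.07 (SE 0.19, 95% interval -0.35 to 0.49, limma adjusted p = 0.942).

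Among the peptides, EPF2, which restrains entry into the lineage and is made by its earliest cells, was at 8.72, 8.40, 7.64 and 7.84 in DGTT2 and at 7.55, 7.57, 8.07 and 8.06 in WT. DGTT2 replicates 1 and 2 lay above every WT array and the other 2 inside the WT range. Its ratio of 1.26 had a 95% interval of 0.859 to 1.85 (limma adjusted p = 0.711). The log2 difference of 0.34 was 0.15 without DGTT2 replicate 1 and 0.51 without DGTT2 replicate 3. EPF1, which acts later to orient spacing divisions, was at 10.55, 10.82, 10.74 and 10.52 in DGTT2 and between 10.51 and 10.60 in WT. Its difference was 0.12 (SE 0.10, limma adjusted p = 0.764). STOMAGEN, made by the mesophyll and acting on the epidermis above it, was at 12.24, 12.18, 12.12 and 11.89 in DGTT2 and at 12.23, 12.14, 12.16 and 12.18 in WT. DGTT2 replicate 4 was the lowest array, and the difference was -0.07 (SE 0.10, limma adjusted p = 0.875) with that array and 0.0003 without it.

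SDD1, a subtilisin-like protease that lowers stomatal density, was at 10.81, 11.06, 10.09 and 10.31 in DGTT2 and at 10.40, 10.59, 10.18 and 10.61 in WT. As for SPCH, the WT arrays lay within the DGTT2 range. The difference was 0.12 (SE 0.21, 95% interval -0.36 to 0.60, limma adjusted p = 0.904).

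**Figure D2:**
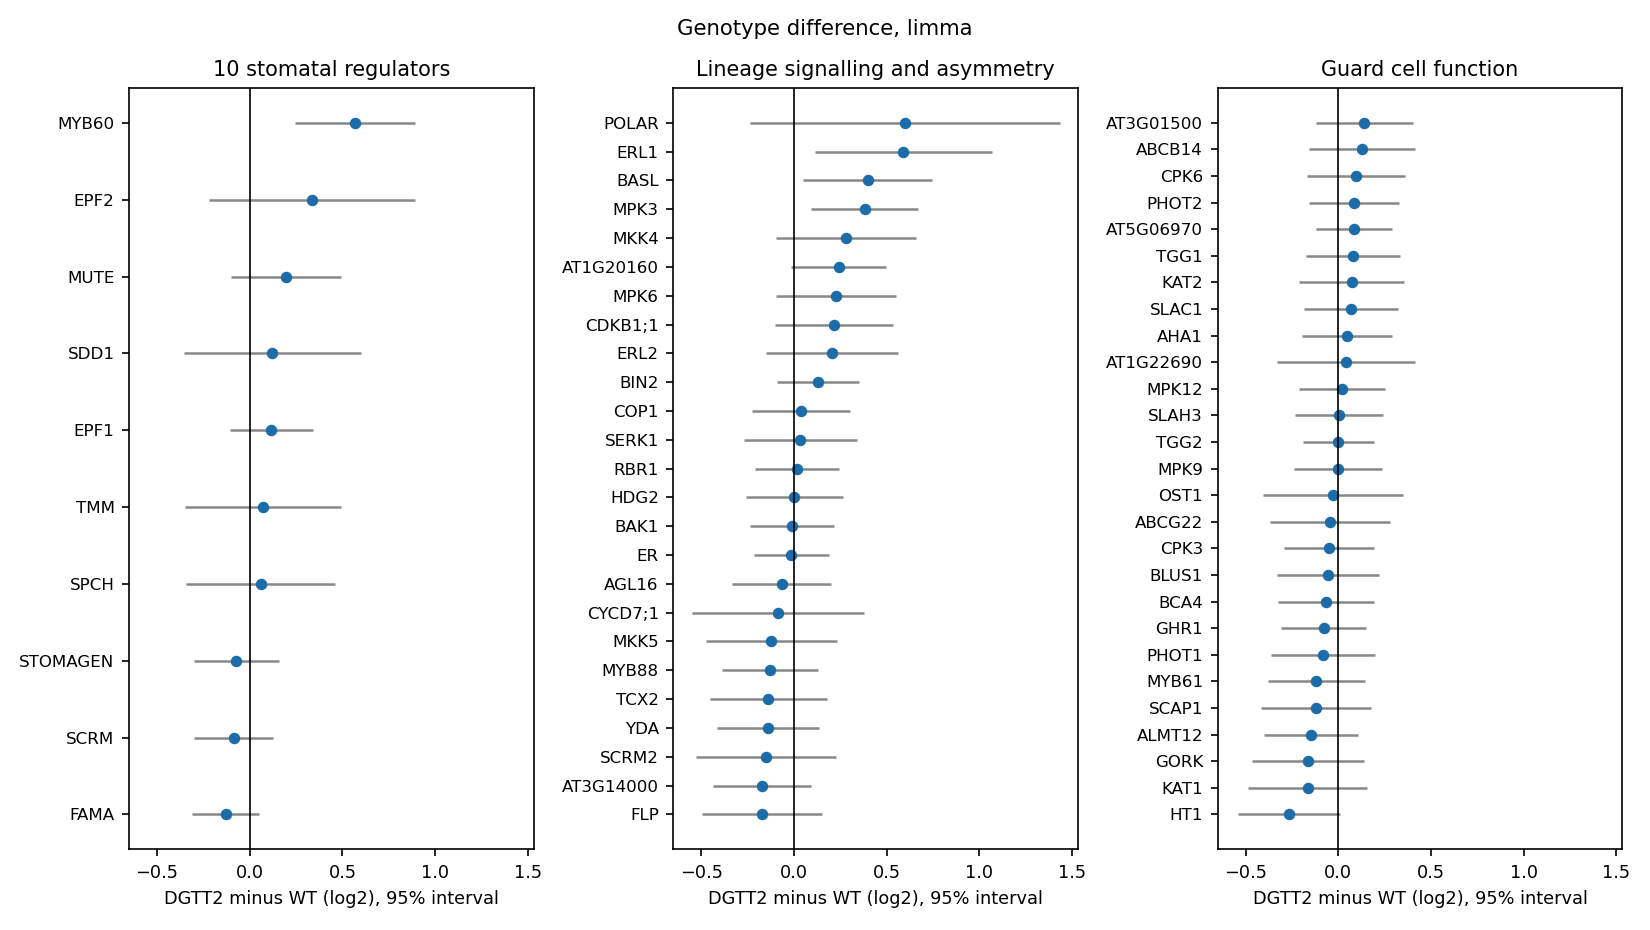
Log2 difference of DGTT2 minus WT (x axis) with 95% intervals from limma for the 10 regulators, 25 genes of lineage signalling and asymmetry and 27 genes of guard cell function, each sorted by size; unnamed genes are given by locus. MYB60 lies at 0.57 with an interval above 0, and all 27 guard cell intervals lie between -0.54 and 0.41.

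The wider signalling pathway likewise had no called gene. Of 25 genes of lineage signalling and asymmetric division, 0 passed at an adjusted p under 0.05, and 3 passed at an unadjusted p under 0.05 (limma), all of them higher in DGTT2. The shares in all features were 0.0725% and 10.5%. The list's median difference was 0.02. ERL1, a receptor kinase of the ERECTA family that partners TMM, was at 8.87, 8.73, 8.15 and 8.40 in DGTT2 and at 8.18, 7.47, 7.87 and 8.28 in WT, with a difference of 0.59 (SE 0.21, limma adjusted p = 0.353). MPK3, a MAP kinase below these receptors that also serves in defence, was at 0.38 (SE 0.13, limma adjusted p = 0.324). BASL, which marks one side of the cell before an unequal division, was at 0.40 (SE 0.15, limma adjusted p = 0.403). In each of the 3 the genotypes overlapped. Of the EPF-like loci, EPFL5 was at -0.22 (SE 0.11, limma adjusted p = 0.548), and AT5G10310, unnamed in the table used here, was at -0.28 (SE 0.15, limma adjusted p = 0.554). Of 5 such loci measured, 0 passed by either count, against 0.0725% and 10.5% of all features. Their differences ran from -0.40 to 0.31, with 2 higher and 3 lower in DGTT2, and 4 of the 5 intervals lay within 2-fold.

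Across the arrays, 1 pair of regulators, SPCH and TMM, was correlated past the adjustment, by r and not by rho; each slide held too few arrays for a correlation of its own. SPCH and TMM had a Pearson r of 0.96 over the 8 arrays (exact permutation p = 0.000818, adjusted over 45 pairs 0.0368) and a Spearman rho of 0.88 (exact permutation p = 0.00724, adjusted 0.231). Without the 2 arrays farthest from the median of SPCH, r was 0.95, and with genotype means removed it was 0.96. Of the 45 pairs of regulators 1 passed by r, this one, and 0 passed by rho.

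SPCH with EPF2 had r = 0.87 and rho = 0.76 (exact permutation p = 0.00556 and 0.0368, adjusted 0.0935 and 0.324), with r = 0.66 without the 2 farthest arrays. SPCH with SDD1 had r = 0.85 and rho = 0.86 (exact permutation p = 0.00831 and 0.0107, adjusted 0.0935 and 0.231), with r = 0.61 without the 2 farthest. TMM with EPF2 had r = 0.86 and rho = 0.71 (exact permutation p = 0.00702 and 0.0576, adjusted 0.0935 and 0.324), with r = 0.81 without the 2 farthest. These 3 pairs were positive and did not pass the adjustment. TMM with SDD1 had r = 0.83 and rho = 0.83 (exact permutation p = 0.0132 and 0.0154, adjusted 0.099 and 0.231), with r = 0.90 without the 2 farthest. MUTE with SDD1 had r = 0.79 and rho = 0.71 (exact permutation p = 0.0203 and 0.0576, adjusted 0.114 and 0.324), with r = 0.74 without the 2 farthest. MUTE with TMM had r = 0.77 and rho = 0.67 (exact permutation p = 0.0288 and 0.0831, adjusted 0.144 and 0.34), with r = 0.83 without the 2 farthest. None of these passed the adjustment either.

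SCRM with STOMAGEN had r = 0.95 and rho = 0.62 (exact permutation p = 0.0109 and 0.115, adjusted 0.0981 and 0.431). The relation rested on WT replicate 1 and DGTT2 replicate 4, without which r was 0.40. FAMA with EPF1 had r = -0.83 and rho = -0.50 (exact permutation p = 0.0166 and 0.216, adjusted 0.107 and 0.54), with r = 0.21 without the 2 farthest arrays and r = -0.92 with genotype means removed. MYB60 with FAMA had r = -0.75 and rho = -0.81 (exact permutation p = 0.0337 and 0.0218, adjusted 0.152 and 0.245). The pair did not pass the adjustment, and with genotype means removed r was -0.009. MYB60 was higher and FAMA lower in DGTT2 without overlap, which alone gives a negative r over all arrays.

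**Figure D3:**
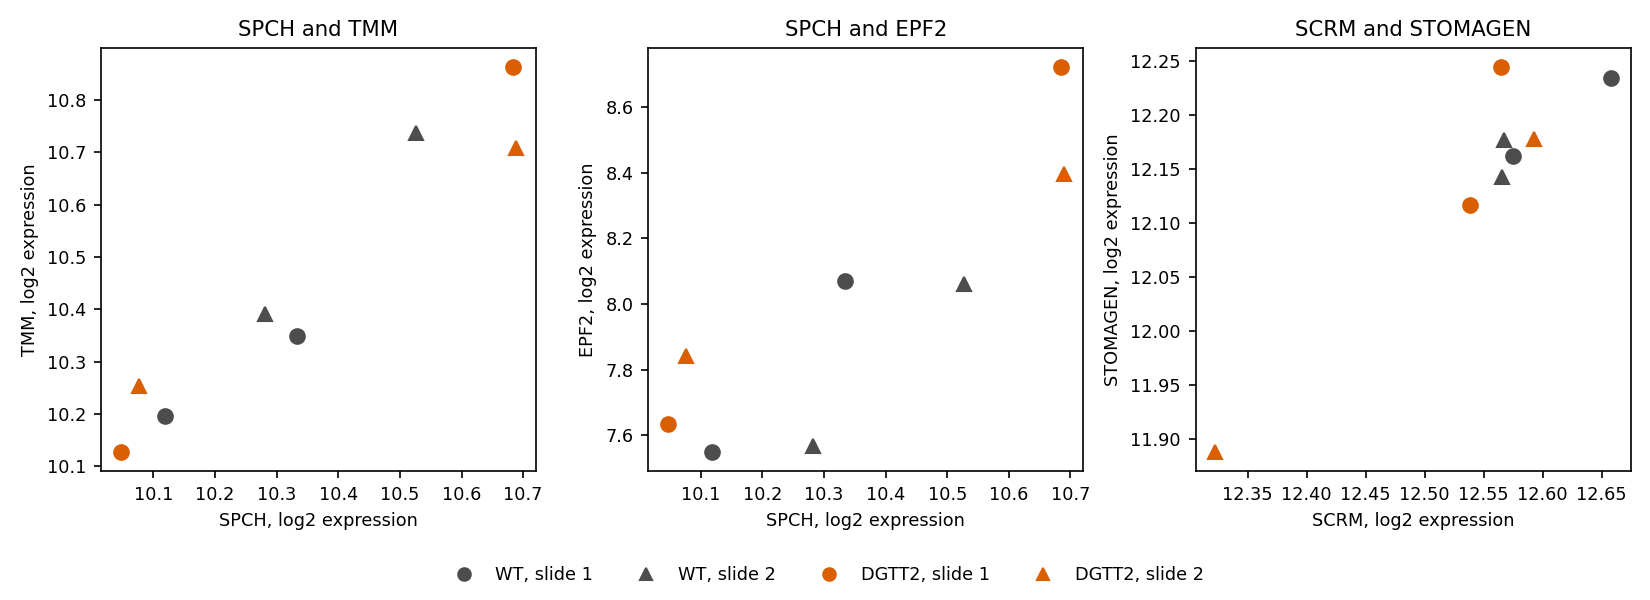
Log2 expression of SPCH against TMM, SPCH against EPF2, and SCRM against STOMAGEN; each point is 1 of 8 arrays, coloured by genotype and shaped by slide. SPCH and TMM follow one line across both genotypes (r = 0.96), while the SCRM and STOMAGEN relation rests on the lowest and the highest array.

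Within DGTT2, replicates 1 and 2 lay above replicates 3 and 4 for 7 of the 10 regulators. Each slide held 4 arrays, and the final digits of the array names, read here as positions although no label says so, put WT at 1 and 2 and DGTT2 at 3 and 4. Genotype thus went with position on both slides, and the pair cannot be told apart. Both DGTT2 arrays at position 3 (replicates 1 and 2) lay above both at position 4 (replicates 3 and 4) for 7 of the 10 regulators: SPCH, MUTE, SCRM, TMM, EPF2, SDD1 and STOMAGEN. The same held for 19.0% of all features, for 9 of 25 lineage genes, 8 of 27 guard cell genes and 2 of 6 markers of dividing cells. In WT, both arrays at position 2 lay above both at position 1 for SPCH and EPF2, against 21.0% of all features, 10 of 25 lineage genes, 11 of 27 guard cell genes and 4 of 6 markers of dividing cells. Both at position 1 lay above both at position 2 for MYB60, as in 17.5% of all features. Position and plant cannot be told apart in these pairs. The pattern was noticed in the values and then counted. Some of the 7 regulators also varied together, as SPCH and TMM did (r = 0.96), so they are not 7 separate cases.

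The dividing cell markers had list means of 10.13 to 10.22 in DGTT2 and 10.02 to 10.28 in WT, with AUR1, a mitotic kinase, at 0.14 (SE 0.15). Of the 6 markers the cyclin CYCB1;1 and the cytokinesis protein KN were the 2 that shared the position pattern, chosen here for it. The rest of the list did not share it. CYCB1;1 was at 10.23 and 10.07 in DGTT2 at position 3 and at 9.79 and 9.93 at position 4, and KN at 11.98 and 12.07 and then 11.69 and 11.79. AUR1, without the pattern, was at 8.47 and 8.74 and then 8.74 and 8.52. The part of dividing cells in the SPCH and TMM values was not tested.

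**Figure D4:**
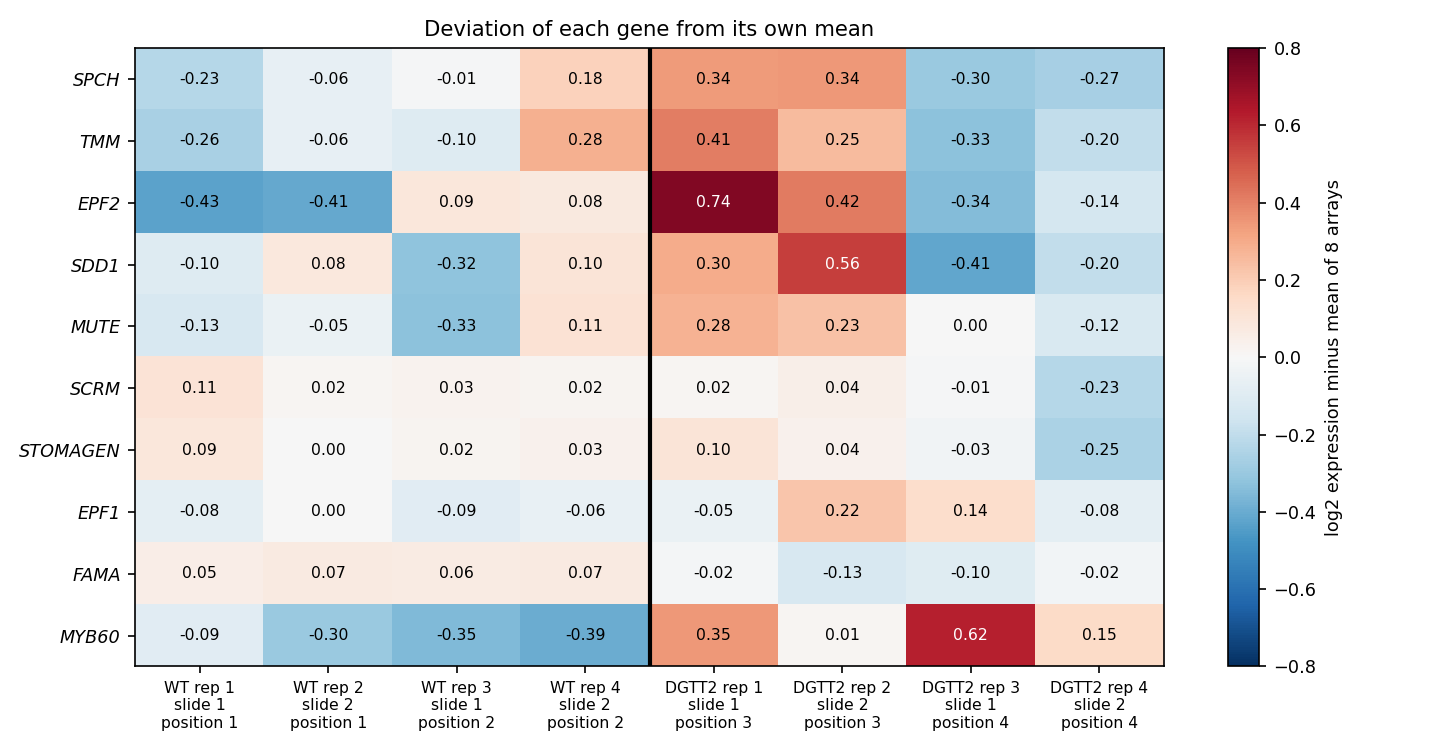
Deviation of each regulator from its own mean over 8 arrays (log2, colour and number), with WT arrays left of the black line and DGTT2 arrays right of it, ordered by slide position. SPCH, TMM, EPF2, SDD1 and MUTE are high in DGTT2 replicates 1 and 2 and at or below their mean in replicates 3 and 4, and MYB60 is low in all WT arrays.

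Genes with the most similar pattern over the 8 arrays were sought among 10345 features with a symbol for the 3 regulators of smallest p. For MYB60 it was APR1, an enzyme of sulfate reduction, with r = 0.96 and rho = 0.95, and a genotype difference of 0.31 (SE 0.11, limma adjusted p = 0.328). For FAMA it was scpl20, of the serine carboxypeptidase-like family, with r = 0.99 and rho = 0.98, at -0.19 (SE 0.09, limma adjusted p = 0.506). For MUTE it was MLP423, of the MLP-like proteins, with r = 0.97 and rho = 0.95, at 0.34 (SE 0.24, limma adjusted p = 0.695). These are the highest values of a search and so are given as a description: 23 features had r over 0.9 with MYB60, 16 with FAMA and 10 with MUTE.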

How the data were processed

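RNA of 8 leaf samples was hybridised to single-colour NimbleGen arrays. In the table the authors deposited, each gene model has 1 log2 value per array; per the submitters' processing notes the tools were RMA and Partek, with settings and genome build not given in the sources used here. That the scale is log2 was inferred from the range of the values. RMA equalises array distributions, so a shift of most genes would not be seen. No detection calls were used, and precision is limited by the 8 arrays.

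No further normalization preceded the test, limma 3.58.1 (R 4.3.3; lmFit and eBayes, genotype as the only term, two-sided), with Benjamini-Hochberg adjustment over all 30361 features; the same fit gave SEs and 95% intervals. The code of the fit was checked on simulated independent values without slide or position effects. Nothing about the uncalled genes is drawn from that check. Names came from the RefSeq table of TAIR10.1 (29976 features matched), which gave no coordinates used here; 11 list names were absent from it and are given by locus. Of 96 list loci, 93 were measured; the other 3 were not analysed here. The members and lists were chosen with earlier results of these data known. Named were all members, the 3 of smallest p in the lineage and guard cell lists, 2 in the EPF-like and MYB lists, 1 per marker list, and the most similar gene for 3 members. Alternatives were 3 normalizations, a filter on dim features, slide as a block (random with statmod 1.5.0) or alone, array weights, the replicate number as a block, a trended robust eBayes, leaving out each array, and other thresholds. Other genes named (KAT1, SLAC1, TGG1, TGG2, SCRM2, GL1, MYB30, MYB96, CYCB1;1, KN, POLAR) were chosen after their values were seen.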

Additional observations from a re-analysis of the deposited data

Results flagged for a closer look

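Of 60 groups of 4 arrays (the named genes in each genotype), 2 held an array set apart from the other 3, where chance sets apart about 1 in 20. SCRM was at 12.66 in WT replicate 1, against 12.57 in each of the other WT arrays, a distance of under 0.10 on the log2 scale. RCA was at 15.68 in DGTT2 replicate 3, against 15.96 to 15.97 in the other DGTT2 arrays.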

How the results depend on the processing

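In 17 other settings of the fit, and in the main fit at an adjusted p under 0.1, 0 of the 10 regulators were called (limma). In the main fit 1, MYB60, passed at an unadjusted p under 0.05, a count not made in the other settings. The count over all features was 22 (15 higher, 7 lower). It was 13 with array medians centred, 69 with slide as a fixed block, 46 with trend and robust, 118 at an adjusted p under 0.1 and 3194 at an unadjusted p under 0.05, and with 1 array left out ran from 5 to 39: 5 without WT replicate 4, 39 without WT 2, 9 and 11 without WT 1 and 3, 7 without DGTT2 1, 6 without DGTT2 3 or 4 and 21 without DGTT2 2. With the replicate block 3 features and 0 regulators were called. Arrays of the same number, which shared a slide, had correlations of their deviations from genotype means of 0.0661, 0.196, -0.0266 and -0.0161. The numbers were not taken as pairs. DGTT2 and WT arrays of different number had 0.157, 0.267, 0.164 and 0.0691 on the same slide. Across slides the correlations ran from -0.235 to 0.0286, and slide was not a term in the main fit. Of the 10 regulators 6, among them MYB60 and FAMA, kept their direction in all 19 settings, slides alone included. On slide 2 alone SPCH was at -0.0214 and TMM at -0.0828. With 1 array left out, SPCH ran from -0.0461 to 0.17, TMM from -0.0551 to 0.19, SDD1 from -0.0437 to 0.28 and STOMAGEN from -0.12 to 0.0003. The settings were also run for the 20 other named genes, a choice made after the data were seen; GL3 and AP3 had no value without the dim features, and of the 20 AUR1 alone turned, to -0.0091 on slide 1. Uncalled differences of other genes also moved by over 1.5 times: EPF1 was at 0.06 without DGTT2 replicate 2, MUTE at 0.12 without WT 3, GORK at -0.07 without WT 4 and -0.26 without WT 1, ALMT12 at -0.07 without WT 3, RCA at -0.0066 and SWEET11 at -0.05 without DGTT2 3 (SWEET11 at -0.21 without DGTT2 1), AUR1 at 0.0074 without WT 2 and 0.24 without WT 3, and MLP423 at 0.19 without DGTT2 1. The cause of these moves was not tested, beyond the smaller number of arrays.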

Other observations

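POLAR, a protein of unequal divisions in the stomatal lineage, had the widest interval of the 25 lineage genes (-0.24 to 1.43) and was chosen after its values were seen. It was at 8.39, 7.73, 7.40 and 6.71 in DGTT2 replicates 1 to 4 and at 7.66, 6.86, 7.03 and 6.29 in WT replicates 1 to 4. In both genotypes replicates 1 and 2 stood above the array of the same slide numbered 3 or 4, and replicate 4 was lowest. The genotypes overlapped, with a difference of 0.60 (SE 0.37, limma adjusted p = 0.638).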
